A study of Rattus norvegicus with 3 samples.

Results

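The cells described here are the endothelial cells of the injured rat spinal cord, the lining of its blood vessels, taken from 3 single-cell RNA libraries. A cell was counted as a member when at least 4 of 8 endothelial marker genes had a molecule and when its counts of phagocyte genes (Cd68 and Tyrobp together under 10 per 10000 molecules) and of fibroblast genes (Dcn and Col1a1 together under 20) were low. The rule also names Pecam1 among the markers and Col1a2 among the fibroblast genes; both were not used here, so 7 markers (Cldn5, Cdh5, Flt1, Kdr, Esam, Egfl7 and Emcn) decided. Of 5815 cells that passed the cell filter, 96 were members.

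Wild type rats aged 6 to 8 weeks received an injection of MPG-HD, of G-HD or of PBS (phosphate-buffered saline, the control fluid) into the spinal cord lesion. The title of the study describes a hydrogel depot for severe cord injury; the labels give no composition for either gel, no strain and no time after injury. Each condition used 5 animals, and 5 mm of cord around the lesion was digested to single cells with collagenase and trypsin, so every vessel type of that stretch and of its coverings could enter the suspension. Each condition gave 1 library, and how its animals were pooled is not stated. Differences between libraries therefore have no replicate check and no test, and every interval below is a 95% interval for counting error alone.

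Endothelial cells of the brain and spinal cord form a barrier. Tight junctions seal the gaps between them, caveolae and other vesicles are few, and dedicated transporters carry glucose, amino acids, hormones and iron from blood to tissue. Plvap, a protein of the diaphragms of caveolae and fenestrae, is low in mature barrier endothelium and present in vessels without a barrier. After injury, the lining can take up leukocyte adhesion molecules and chemokines, and it can respond to interferon by inducing antiviral genes.

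The library totals were 23988263 unique molecular identifiers (UMIs, each standing for 1 captured RNA molecule) for MPG-HD, 26289759 for G-HD and 16081082 for PBS. Endothelial cells numbered 28 of 2091 kept cells in MPG-HD (1.34%, exact binomial interval 0.892 to 1.93), 35 of 2347 in G-HD (1.49%, 1.04 to 2.07) and 33 of 1377 in PBS (2.40%, 1.66 to 3.35). The share in MPG-HD was 0.559 times that in PBS (0.325 to 0.954), and the share in G-HD was 0.622 times that in PBS (0.376 to 1.03). Digestion sets which cells survive into a suspension, so these shares describe suspensions rather than tissue. The members held 349428 UMIs in MPG-HD, 417813 in G-HD and 444857 in PBS, with medians of 12155, 9850 and 8069 UMIs per cell in the same order. The libraries shared 5 to 8 cell barcodes per pair, and none of the shared barcodes was a member in both libraries.

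The label of endothelial cells was checked against genes that the rule did not use. Over all 96 members, Slco1c1, a thyroid hormone transporter of brain endothelium, was detected in 57 cells at 555 CPM (counts per 1000000 UMIs of the summed cells), against 0.328 CPM in all other kept cells. Vwf, the von Willebrand factor of endothelial granules, was found in 84 members at 597 CPM and in other cells at 0.780 CPM. Sox17, an endothelial transcription factor, was found in 81 members at 290 CPM and in other cells at 0.219 CPM. These levels describe a population chosen by correlated genes and carry no test. Markers of other cells varied by type. The 8 lymphocyte markers had 0 UMIs in all libraries, and 6 neuron markers had 0 in MPG-HD, 3 in G-HD and 0 in PBS. Oligodendrocyte markers were found in 76 members, at 312 CPM in MPG-HD, 148 CPM in G-HD and 207 CPM in PBS, against 12200 CPM in all other cells of the 3 libraries. The neutrophil list was found in 60 members, at 733 CPM in MPG-HD, 570 CPM in G-HD and 746 CPM in PBS, and Lcn2 made up 249 of its 256 UMIs in MPG-HD, 206 of 238 in G-HD and 322 of 332 in PBS. The summed phagocyte markers reached 155 CPM in MPG-HD, 357 CPM in G-HD and 169 CPM in PBS. Of 8 lymphatic markers, Pdpn, Reln, Ccl21 and Stab2 had 0 UMIs in every library; the others had 28 UMIs in 22 members, of which Flt4, a receptor that blood vessels can also carry, had 7 in MPG-HD, 11 in G-HD and 3 in PBS.

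A few members carried RNA of neighbours. Molecules of at least 3 mural genes (pericytes and smooth muscle) were found in 3 MPG-HD, 3 G-HD and 1 PBS members, and the summed mural list stood at 484 CPM in MPG-HD, 584 CPM in G-HD and 234 CPM in PBS. Haemoglobin made up at least 1% of UMIs in 1 MPG-HD, 1 G-HD and 4 PBS members, up to 48.2% in 1 PBS cell. The part of these cells in the differences below was not tested beyond leaving them out. At the edge of the rule, 5 members had 4 markers, with 1264 to 6793 UMIs each, and 8 cells within both limits had 3 markers and stayed outside.

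The first comparison concerns the transporters of the barrier. For 9 of 15 measured transporters the level was highest in MPG-HD and lowest in G-HD, with PBS between them; of all 2801 genes measured in the 3 comparisons, 552 (19.7%) had that order. Of 22 listed transporters, 15 reached 30 UMIs in both libraries of a comparison together and are called measured. In MPG-HD over PBS, 8 of the 15 were at least 1.5-fold higher and 1 was at least 1.5-fold lower, against 10.9% higher and 10.6% lower of all 3107 measured genes. In G-HD over PBS, 1 was higher and 5 were lower, against 9.28% and 10.9% of 3277 genes. In MPG-HD over G-HD, 8 were higher and 0 lower, against 11.3% and 9.79% of 2992 genes. The list medians were a log2 ratio of 0.64, -0.36 and 0.72, beside medians of 0.0026, -0.0091 and 0.026 over all measured genes. In all other kept cells of the same libraries, the medians of the transporters that were measured there were -0.18, 0.07 and -0.21. Without the members that had a molecule of Plvap (described below), the medians in endothelial cells were 0.41, -0.33 and 0.73.

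Slc2a1, the glucose transporter GLUT1, stood at 2063 CPM in MPG-HD, 1802 CPM in G-HD and 1286 CPM in PBS. Its ratio was 1.60 in MPG-HD over PBS (1.44 to 1.79) and 1.40 in G-HD over PBS (1.26 to 1.57). Both gel libraries thus exceeded PBS for this transporter, beyond counting error. Slco1c1 followed another order, with 922 CPM in MPG-HD, 225 CPM in G-HD and 578 CPM in PBS. The ratio was 4.10 in MPG-HD over G-HD (3.25 to 5.21), 0.389 in G-HD over PBS (0.304 to 0.495) and 1.60 in MPG-HD over PBS (1.35 to 1.89). When each cell was thinned to 2000 UMIs, 72.0% of MPG-HD members, 28.1% of G-HD members and 51.5% of PBS members still had a molecule of Slco1c1 (75.0%, 45.7% and 60.6% before thinning). The phagocytes of the same libraries, which should lack the gene and had median depths of 11931, 11983 and 11258 UMIs, showed it in 0.181%, 0.148% and 0.131% of cells before thinning.

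Tfrc, the transferrin receptor that brings iron into the vessel wall, had 58 UMIs in 15 MPG-HD cells (166 CPM), 10 UMIs in 3 G-HD cells (23.9 CPM) and 27 UMIs in 11 PBS cells (60.7 CPM). It was 6.94 times higher in MPG-HD than in G-HD (3.51 to 15.2) and stood at 0.394 in G-HD over PBS (0.170 to 0.841). Slc22a8, the organic anion transporter OAT3, repeated that order with 157 CPM in MPG-HD, 26.3 CPM in G-HD and 58.4 CPM in PBS. Slco1a4, an organic anion transporter of the blood-brain barrier, differed less, at 1162 CPM in MPG-HD, 704 CPM in G-HD and 951 CPM in PBS. Mfsd2a, which carries lysolipids with docosahexaenoic acid and in mice restrains vesicle transport, had only 32, 19 and 26 UMIs in MPG-HD, G-HD and PBS, and its ratio of 1.57 in MPG-HD over PBS had an interval that spans 1 (0.905 to 2.74). Slc38a5, a glutamine transporter, and Slc3a2, the heavy chain of amino acid transporters, lay within 1.5-fold of each other in every comparison.

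**Figure D1:**
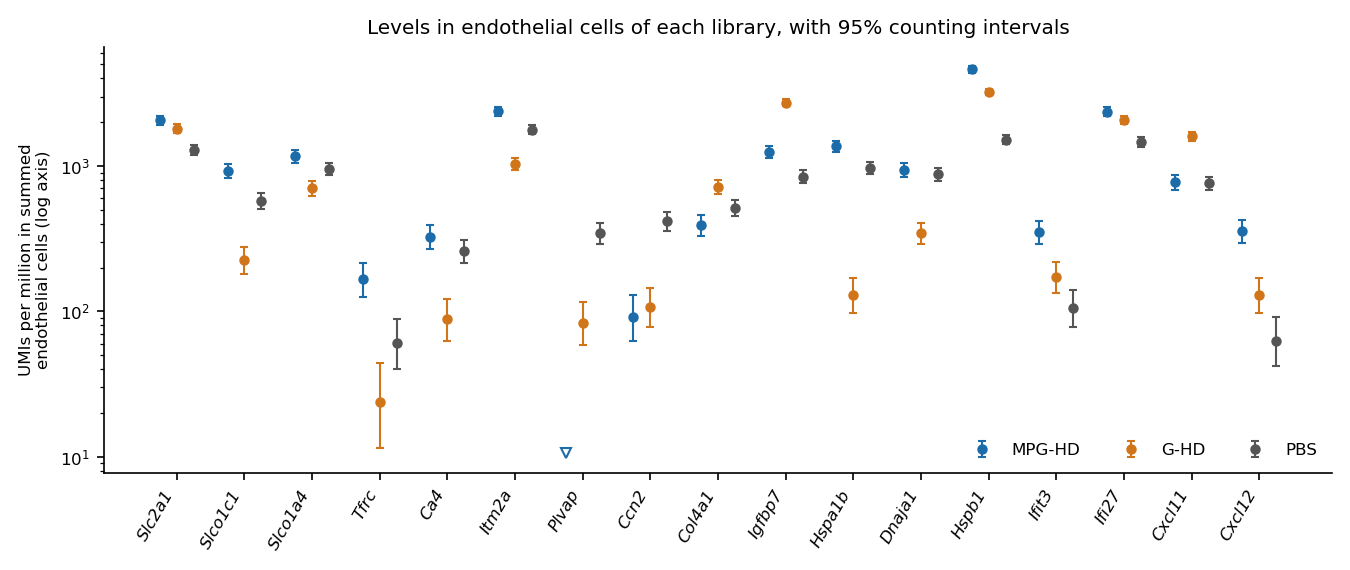
Level of 17 genes in the summed endothelial cells of MPG-HD, G-HD and PBS, in CPM on a log axis; bars are exact 95% Poisson intervals and the open triangle marks the upper bound where no UMI was found. Slco1c1, Tfrc, Ca4, Hspa1b and Dnaja1 are lowest in G-HD, while Hspb1, Ifit3 and Cxcl12 are highest in MPG-HD and lowest in PBS.

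Genes that mark capillaries followed the same order of libraries; Mfsd2a, Slc7a5 and Tfrc stand in this list and in that of the transporters. Of 10 listed, 6 were measured. In MPG-HD over PBS, 4 were higher and 0 lower (median log2 ratio 0.64), against 10.9% and 10.6% of all measured genes. In G-HD over PBS, 1 was higher and 3 were lower (-0.57), against 9.28% and 10.9%. In MPG-HD over G-HD, 5 were higher and 0 lower (1.18), against 11.3% and 9.79%. Ca4, a carbonic anhydrase on the capillary surface, had 326 CPM in 14 MPG-HD cells, 88.6 CPM in 5 G-HD cells and 259 CPM in 13 PBS cells. Its ratio was 3.68 in MPG-HD over G-HD (2.52 to 5.49), whereas MPG-HD and PBS could not be told apart by counting (1.26, 0.965 to 1.65). Itm2a, a membrane protein enriched in brain endothelium, stood at 2372 CPM in MPG-HD, 1034 CPM in G-HD and 1769 CPM in PBS. Rgcc, a regulator of the cell cycle, had another order, with 612 CPM in MPG-HD, 275 CPM in G-HD and 130 CPM in PBS, above PBS in both gels. In all other kept cells Rgcc was 0.861 times as high in MPG-HD as in PBS.

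Tight junction genes differed little between the libraries. Of 16 junction and adherens genes beyond the markers used by the rule, 6 were measured. None of the 6 passed 1.5-fold in any comparison (medians 0.26, 0.09 and 0.25). Of all measured genes, 10.9% were higher and 10.6% lower in MPG-HD over PBS, with 9.28% and 10.9% in G-HD over PBS. In MPG-HD over G-HD the shares were 11.3% and 9.79%. Ocln, the junction strand protein occludin, had 152 CPM in MPG-HD, 127 CPM in G-HD and 124 CPM in PBS. Lsr, a protein of the corners where 3 cells meet, had 289 CPM in MPG-HD, 244 CPM in G-HD and 223 CPM in PBS. The intervals of both ratios spanned 1 in each comparison with PBS, the widest being 0.690 to 1.52 for Ocln in G-HD. The rule used Cldn5, the main claudin of the barrier, so its level is only described: 5340 CPM in MPG-HD, 4366 CPM in G-HD and 4046 CPM in PBS. Wnt signalling maintains the barrier in the central nervous system, and 7 of 17 genes of that pathway were measured. Lef1, its transcription factor, had 378 CPM in MPG-HD, 328 CPM in G-HD and 227 CPM in PBS. Apcdd1, an inhibitor induced by the pathway, had 489 CPM in MPG-HD, 352 CPM in G-HD and 281 CPM in PBS. Lef1 and Apcdd1 were the 2 genes of the list at least 1.5-fold higher in MPG-HD over PBS, against 10.9% of all measured genes. The receptor Fzd6 was at least 1.5-fold lower (-1.27 on the log2 scale), as were 10.6% of all measured genes.

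Plvap was found in G-HD and PBS cells and in no MPG-HD cell. It had 0 UMIs in the 28 MPG-HD cells, 35 UMIs in 9 of 35 G-HD cells and 153 UMIs in 10 of 33 PBS cells. The share of cells with a molecule was 0% in MPG-HD (exact interval up to 12.3), 25.7% in G-HD (12.5 to 43.3) and 30.3% in PBS (15.6 to 48.7). Taken over the summed UMIs, the level in MPG-HD was at least 40.1-fold lower than in PBS and at least 9.76-fold lower than in G-HD, with 3 UMIs per library as the floor. The exact interval of the ratio, which starts at 0, reached 0.0311 against PBS and 0.133 against G-HD. G-HD stood at 0.244 times PBS (0.164 to 0.354), with almost as many positive cells. Among phagocytes, 2.90% of MPG-HD, 1.92% of G-HD and 4.07% of PBS cells had a molecule of Plvap before thinning, well under the shares in G-HD and PBS endothelial cells. Of 8 genes of caveolae and vesicle transport, Plvap among them, 0 were higher and 3 lower in MPG-HD over PBS (Plvap, Cav2 and Ehd2). In G-HD over PBS 1 was higher and 1 lower, and in MPG-HD over G-HD 0 were higher and 2 lower. The medians were -0.19, 0.18 and -0.37. The shares of all measured genes were 10.9% and 10.6%, 9.28% and 10.9%, and 11.3% and 9.79%. The list was near those shares in G-HD over PBS. Cav1, the main coat protein of caveolae, had 335 CPM in MPG-HD, 426 CPM in G-HD and 339 CPM in PBS.

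Few cells held Plvap together with Mfsd2a or Slco1c1. In MPG-HD, 22 cells had a molecule of Mfsd2a or Slco1c1, 6 had none of the 3 genes, and none had Plvap. In G-HD, 7 cells had Plvap without either transporter, 18 had a transporter without Plvap, 2 had both and 8 had none. In PBS the corresponding counts were 8, 18, 2 and 5. Other transporters were found in Plvap cells: Slco1a4 had molecules in 5 of the 9 in G-HD and 6 of the 10 in PBS, and Slc2a1 in 4 of each. Plvap cells were not deeper than the rest, with medians of 8058 against 11215 UMIs in G-HD and 7932.5 against 8069 in PBS. Because these cells were picked by a gene of the same profile, the genes that follow are a description.

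**Figure D2:**
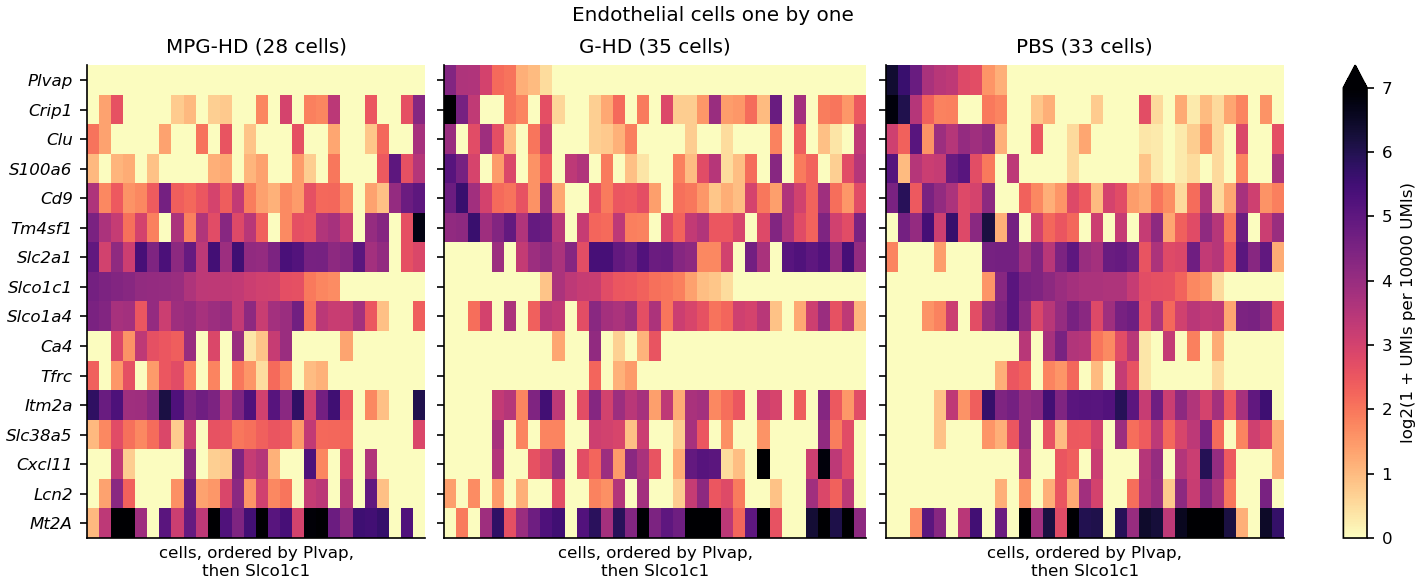
Each column stands for 1 endothelial cell, ordered within its library by Plvap and then by Slco1c1; colour gives log2(1 + UMIs per 10000 UMIs), with values above 7 drawn as 7. Plvap cells stand at the left in G-HD and PBS, where Slco1c1 and Ca4 are pale in nearly all of them and Cd9 and Tm4sf1 are coloured in nearly all. Many other members share this: Cd9 was found in 23 of those in G-HD and 22 in PBS, Tm4sf1 in 23 and 18, and Ca4 in only 5 G-HD cells. Crip1, Clu and Mt2A vary from cell to cell, and MPG-HD has no Plvap cells.

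Several genes differed the same way between Plvap cells and other members in G-HD and in PBS. Crip1, a small LIM domain protein, was 5.82 times higher in the Plvap cells than in the other members of G-HD (4.54 to 7.48) and 15.4 times higher in PBS (10.7 to 22.5). In G-HD, 119 of the 153 UMIs lay in 1 of the 9 Plvap cells and 3 had none; without that cell the ratio was 1.40 (0.928 to 2.07), and without the top cell of PBS it was 9.13 (6.10 to 13.9). Clu, the secreted chaperone clusterin, was 7.23 times higher in G-HD (4.34 to 12.3) and 19.0 times higher in PBS (12.3 to 30.4); without the top cell the ratios were 5.65 and 13.8. The tetraspanin Cd9, the endothelial membrane protein Tm4sf1 and the coreceptor Eng were also higher in both, as were S100a6 and Igfbp4. Without the top cell, S100a6 was 1.88 times higher in G-HD (1.22 to 2.82), and Igfbp4, with 12 UMIs in the Plvap cells of G-HD, had a ratio of 2.22 with an interval that spans 1 (0.764 to 5.77). In the other direction, Mt2A, a metallothionein that buffers zinc and copper, was 0.219 times as high in G-HD (0.186 to 0.256) and 0.139 times in PBS (0.112 to 0.169). Lcn2, an iron-binding protein of inflamed vessels, had 5 UMIs in the Plvap cells of G-HD against 201 in the rest, and 1 UMI in those of PBS against 321. The Plvap cells held fewer UMIs in total, and the ratio of levels was 0.109 in G-HD (0.0349 to 0.258) and 0.0135 in PBS (0.000341 to 0.0759). Cxcl11, a chemokine for activated T cells, had 28 against 640 UMIs in G-HD and 0 against 338 in PBS. Its ratio of levels was 0.191 in G-HD (0.126 to 0.279), and in PBS the interval reached 0.0477.

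Few genes of sprouting were measured. Of 18 sprouting genes, 5 were measured in each comparison; in MPG-HD over G-HD 1 was higher and 4 were lower (median log2 ratio -0.87; 11.3% and 9.79% of all genes), and in G-HD over PBS 3 were higher and 0 lower (0.73; 9.28% and 10.9% of all genes). In MPG-HD over PBS 1 was higher and 2 were lower (-0.39), against 10.9% and 10.6% of all genes. Without the members that had Plvap, the last median was 0.22 and the first -0.56, so the sign against PBS rested on those cells. Aplnr, the apelin receptor of growing vessels, had 83.0 CPM in MPG-HD, 146 CPM in G-HD and 180 CPM in PBS. Mcam, an adhesion receptor of the vessel wall that pericytes also carry, had 28.6 CPM in MPG-HD, 120 CPM in G-HD and 71.9 CPM in PBS. Its ratio was 0.239 in MPG-HD over G-HD (0.108 to 0.477), against 1.42 in all other cells; Col4a1, given next, stands in this list too. Adm, the dilating peptide adrenomedullin, ran the other way with 27 UMIs in MPG-HD, 20 in G-HD and 7 in PBS.

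Basement membrane genes gave a like order between the gels. In MPG-HD over G-HD, 9 of 17 were measured, with 0 higher and 4 lower (median -0.52), against 11.3% and 9.79% of all measured genes. In G-HD over PBS, 10 were measured, with 4 higher and 0 lower (0.31), against 9.28% and 10.9%. The last median was 0.05 without Plvap members and 0.0054 without members that had mural genes. In MPG-HD over PBS, 7 were measured, with 0 higher and 2 lower (-0.33), against 10.9% and 10.6%. In all other cells the medians of this list were -0.60 in MPG-HD over G-HD, 0.20 in G-HD over PBS and -0.36 in MPG-HD over PBS. The order of the libraries for this list was thus not limited to endothelial cells. Col4a1, a chain of the main basement membrane collagen, had 392 CPM in MPG-HD, 718 CPM in G-HD and 515 CPM in PBS. The ratio in MPG-HD over G-HD was 0.546 (0.443 to 0.671), and it was 0.624 in all other cells, close to the endothelial ratio. Col18a1, the source of endostatin, had 65.8 CPM in MPG-HD, 146 CPM in G-HD and 191 CPM in PBS. Sparc, a matrix binding protein abundant in endothelium, was almost level at 3117 CPM in MPG-HD, 3526 CPM in G-HD and 3417 CPM in PBS.

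Leukocyte adhesion molecules were thinly counted. Of 13 listed, 9 were measured; 0 were higher and 3 lower in MPG-HD over PBS, 1 higher and 1 lower in G-HD over PBS, and 1 higher and 4 lower in MPG-HD over G-HD (medians -0.18, 0.14 and -0.14). The shares of all genes were 10.9% and 10.6%, 9.28% and 10.9%, and 11.3% and 9.79%, so the list was near the background in G-HD over PBS. Without Plvap members the first median was 0.14. Vcam1, which holds leukocytes through integrins, had 16 UMIs in 9 MPG-HD cells, 46 UMIs in 12 G-HD cells and 52 UMIs in 15 PBS cells. Its ratio in MPG-HD over PBS was 0.392 (0.209 to 0.697). Selp, the selectin on which leukocytes roll, had 11 UMIs in 1 MPG-HD cell, 44 UMIs in 10 G-HD cells and 32 UMIs in 9 PBS cells. Icam1, another integrin ligand, had 117 CPM in MPG-HD, 201 CPM in G-HD and 135 CPM in PBS. For these 3 of the 9 measured genes MPG-HD was the lowest library, and for Selp and Icam1 G-HD was the highest. The summed list differed less, at 1563 CPM in MPG-HD, 1766 CPM in G-HD and 1657 CPM in PBS. Its ratio was 0.943 in MPG-HD over PBS (0.843 to 1.055), an interval that spans 1, and 0.885 in MPG-HD over G-HD (0.791 to 0.989). No interval is given for Selp or Icam1, so their order is that of the counts alone.

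Chemokines divided by gene. Of 17 chemokine and cytokine genes, 9 were measured in G-HD over PBS, where 6 were higher and 2 lower (median 1.07). Of all measured genes, 9.28% and 10.9% were. In MPG-HD over PBS 7 were measured, of which 2 were higher and 1 was lower (0.18), against 10.9% and 10.6%. Cxcl11 had 269 UMIs in 13 MPG-HD cells, 668 UMIs in 22 G-HD cells and 338 UMIs in 12 PBS cells. The ratio was 2.10 in G-HD over PBS (1.84 to 2.41) and 1.01 in MPG-HD over PBS (0.860 to 1.19). It was also 2.06 in G-HD over PBS in all other kept cells, where the level was far lower, at 5.35 CPM in G-HD and 2.60 CPM in PBS. The endothelial level was 1599 CPM in G-HD and 760 CPM in PBS. Cxcl10, which acts on the same receptor, had 269 CPM in MPG-HD, 560 CPM in G-HD and 238 CPM in PBS. Its top cell held 61 of the 106 UMIs in PBS. Cxcl12, which retains immune and progenitor cells, followed a different order with 355 CPM in MPG-HD, 129 CPM in G-HD and 62.9 CPM in PBS. It was 5.64 times higher in MPG-HD than in PBS (3.72 to 8.83), against 1.67 times in all other cells. Ccl2, a monocyte attractant, had 25 of its 38 UMIs in MPG-HD in 1 cell and 34 of its 35 UMIs in PBS in 1 cell, so its ratio says little about these cells as a group.

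**Figure D3:**
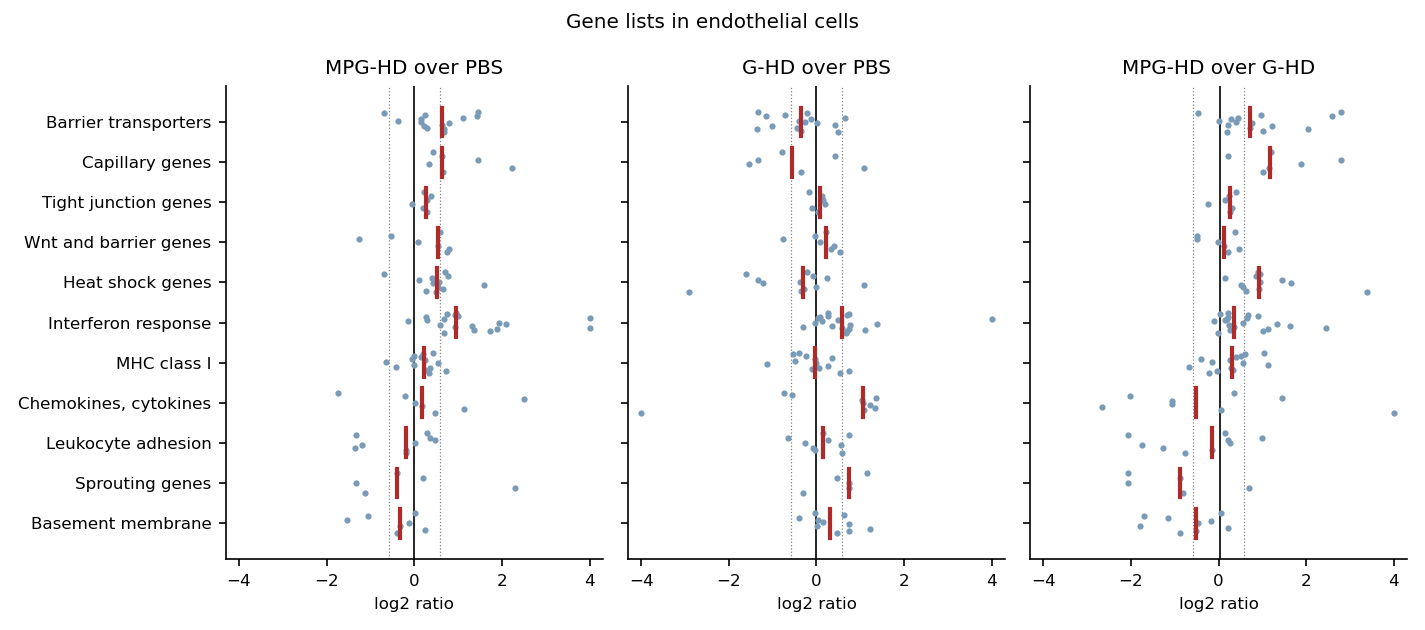
Log2 ratios of the measured genes of 11 lists (points) with the list median (red bars) in MPG-HD over PBS, G-HD over PBS and MPG-HD over G-HD; the black line is the median of all measured genes, the dotted lines are 1.5-fold, and points beyond 4 either way are drawn at the edge. The interferon median lies right of the black line in both comparisons with PBS (0.95 and 0.59), and the medians of barrier transporters (0.72) and heat shock genes (0.92) lie to its right in MPG-HD over G-HD.

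The interferon list, the longest of those used, had median gene ratios above PBS in both gels, while the median cell differed little. The summed list of the median cell stood at 4921.4 CPM in MPG-HD, 5136.5 CPM in G-HD and 5115 CPM in PBS. The highest cell had 20875, 23263 and 11494 CPM in the same order. Of 37 genes, 19 were measured. In MPG-HD over PBS, 16 were higher and 0 lower (median 0.95), against 10.9% and 10.6% of all measured genes. In G-HD over PBS, 10 were higher and 0 lower (0.59), against 9.28% and 10.9%. In MPG-HD over G-HD, 8 were higher and 0 lower (0.35), against 11.3% and 9.79%. In all other kept cells the order of the gels was the reverse, with medians of 0.26, 0.74 and -0.47. Giving every cell the same weight, the medians in endothelial cells were 0.57, 0.10 and 0.11. Without the members that had mural genes, the median in MPG-HD over G-HD was 0.03.

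Cells under interferon switch on genes through a short promoter element, the interferon-stimulated response element, searched here as GAAA and GAAAC with 2 bases of any kind between them. It was searched on both strands in windows of 300 bases, from 250 before to 50 after each gene start, in RefSeq sequences of assembly GRCr8. Of the 37 interferon genes, 26 had a window, and 15 of these (57.7%) held a match, against 207 of all 24206 windows (0.855%). Ifit3, which restricts viral RNA, and Ifi27, an interferon-induced membrane protein, are shown because both were above PBS in both gels and both hold the element, which stands in capitals.

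Ifit3 promoter, chr1:241527076-241527375, plus strand: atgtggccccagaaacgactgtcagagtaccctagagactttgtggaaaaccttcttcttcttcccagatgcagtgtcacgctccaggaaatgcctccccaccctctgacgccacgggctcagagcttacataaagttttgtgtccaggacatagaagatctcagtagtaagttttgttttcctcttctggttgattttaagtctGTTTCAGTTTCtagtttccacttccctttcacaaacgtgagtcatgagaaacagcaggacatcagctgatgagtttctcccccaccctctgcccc

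Ifi27 promoter, chr6:128355062-128355361, plus strand: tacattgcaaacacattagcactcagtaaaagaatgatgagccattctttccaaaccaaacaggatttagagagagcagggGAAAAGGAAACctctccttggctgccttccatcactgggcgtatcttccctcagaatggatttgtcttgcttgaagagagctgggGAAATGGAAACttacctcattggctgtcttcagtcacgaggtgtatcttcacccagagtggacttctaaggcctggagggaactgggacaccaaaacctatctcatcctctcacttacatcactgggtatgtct

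Ifit3 had 122 UMIs in 13 MPG-HD cells (349 CPM), 72 UMIs in 15 G-HD cells (172 CPM) and 47 UMIs in 12 PBS cells (106 CPM). The ratio was 3.30 in MPG-HD over PBS (2.34 to 4.73) and 1.63 in G-HD over PBS (1.11 to 2.41); in all other cells it was 1.39 and 4.17. The number of positive cells was similar, at 13, 15 and 12. Ifi27 was found in nearly every member, with 2367 CPM in MPG-HD, 2068 CPM in G-HD and 1470 CPM in PBS, and its ratios were 1.61 (1.45 to 1.79) and 1.41 (1.27 to 1.56). Irf7, the factor that amplifies the response, had 212 CPM in MPG-HD, 83.8 CPM in G-HD and 49.5 CPM in PBS. Of its 74 UMIs in MPG-HD, 29 lay in 1 cell. Isg15, a ubiquitin-like protein attached to targets, had 349 CPM in MPG-HD, 290 CPM in G-HD and 135 CPM in PBS. Ifi27l2b had 82 UMIs in 8 MPG-HD cells, 63 UMIs in 14 G-HD cells and 1 UMI in PBS, giving ratios of 104 (18.2 to 4173) and 67.1 (11.6 to 2691). Other kept cells of PBS did carry Ifi27l2b, at 128 CPM, and 57 of the 82 UMIs in MPG-HD lay in 1 cell. Mx1, an antiviral GTPase, had 41 UMIs in 3 MPG-HD cells, 9 UMIs in 3 G-HD cells and no UMI in PBS; 33 of the 41 lay in 1 cell.

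Genes of antigen presentation by class I molecules were mostly within 1.5-fold. Of 22 genes, 14 were measured in MPG-HD over PBS and 13 in G-HD over PBS, with 1 higher and 1 lower in each (medians 0.22 and -0.02), near the shares of all genes (10.9% and 10.6%, and 9.28% and 10.9%). In MPG-HD over G-HD, 3 of 14 were higher and 1 was lower (0.31), against 11.3% and 9.79%. B2m, the light chain of all class I molecules, had 7112 CPM in MPG-HD, 5902 CPM in G-HD and 5993 CPM in PBS. RT1-A2, a heavy chain, was 1.64 times higher in MPG-HD than in PBS (1.43 to 1.88) and 1.67 times higher in G-HD than in PBS (1.47 to 1.91). Rat class I genes are near copies of each other, so reads may be split between them and single RT1 genes are uncertain. Class II genes were almost absent, with 2 UMIs in MPG-HD, 5 in G-HD and 2 in PBS over the whole list.

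Heat shock genes were higher in MPG-HD than in G-HD for most of the list. The summed list stood at 17775 CPM in MPG-HD, 10483 CPM in G-HD and 11102 CPM in PBS. Of 14 chaperone genes, 12 were measured. In MPG-HD over G-HD 9 were higher and 0 lower (median 0.92), against 11.3% and 9.79% of all measured genes. In G-HD over PBS 1 was higher and 4 were lower (-0.31), against 9.28% and 10.9%. In MPG-HD over PBS 4 were higher and 1 was lower (0.51), against 10.9% and 10.6%. In all other cells the medians were 0.21, -0.11 and -0.02 in the same order. Chaperones refold proteins, and heat shock factor switches them on through the heat shock element, searched here as the blocks TTC, GAA and TTC with 2 bases of any kind between blocks, or its reverse complement, GAA, TTC and GAA. A match is a run of letters and no proof of binding. Of 11 heat shock genes with a window of 300 bases, 5 held it (45.5%: Dnaja1, Hspa8, Hspd1, Hspe1 and Hsph1), against 170 of 24206 windows (0.702%). The windows of Hspd1 and Hspe1 overlap on opposite strands and hold the same stretch, which is counted for both genes. Dnaja1 and Hsph1 are shown because both were at least 1.5-fold lower in G-HD than in PBS and in MPG-HD; capitals mark the element.

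Dnaja1 promoter, chr5:60638154-60638453, plus strand: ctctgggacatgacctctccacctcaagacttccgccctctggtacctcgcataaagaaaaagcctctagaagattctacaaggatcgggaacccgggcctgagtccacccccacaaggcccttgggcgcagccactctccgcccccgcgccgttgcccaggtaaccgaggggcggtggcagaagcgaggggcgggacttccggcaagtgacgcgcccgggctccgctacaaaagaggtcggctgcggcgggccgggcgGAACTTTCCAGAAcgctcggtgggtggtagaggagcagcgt

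Hsph1 promoter, chr12:10427118-10427417, plus strand: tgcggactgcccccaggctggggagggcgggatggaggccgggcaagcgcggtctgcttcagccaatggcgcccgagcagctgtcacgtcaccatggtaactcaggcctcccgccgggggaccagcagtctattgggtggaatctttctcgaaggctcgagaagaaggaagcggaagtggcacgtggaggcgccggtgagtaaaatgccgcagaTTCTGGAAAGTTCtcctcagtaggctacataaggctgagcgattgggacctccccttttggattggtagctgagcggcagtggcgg

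Hspa1b, the inducible chaperone HSP70, had 476 UMIs in 24 MPG-HD cells, 54 UMIs in 19 G-HD cells and 432 UMIs in 32 PBS cells. The ratio was 10.5 in MPG-HD over G-HD (7.94 to 14.2) and 0.133 in G-HD over PBS (0.0984 to 0.177). In all other kept cells the ratios were 1.57 and 0.447, the same side of 1 with a smaller size. Reads of the near-identical Hspa1a could be counted here, so the level is that of the pair. Dnaja1, a partner of HSP70, had 944 CPM in MPG-HD, 345 CPM in G-HD and 874 CPM in PBS. Hsph1, which exchanges the nucleotide of HSP70, had 306 CPM in MPG-HD, 98.1 CPM in G-HD and 227 CPM in PBS. Hspb1, the small heat shock protein HSP27, did not follow them, with 4608 CPM in MPG-HD, 3229 CPM in G-HD and 1520 CPM in PBS. Its ratios were 3.03 in MPG-HD over PBS (2.77 to 3.32) and 2.12 in G-HD over PBS (1.94 to 2.33), against 1.01 and 1.09 in all other cells.

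The genes with the largest differences were then named for each comparison by a rule on size and counts. At 2-fold, 71 genes (2.29%) were higher and 120 (3.86%) lower in MPG-HD over PBS. Depp1, a gene induced by FOXO factors, led those higher, with 311 UMIs in 23 MPG-HD cells against 65 UMIs in 16 PBS cells, a ratio of 6.09 (4.65 to 8.09). It was all but limited to endothelium, at 0.344 CPM in other MPG-HD cells. Cxcl12, Rgcc, Hspb1, Irf7, Ifit3, Tbc1d4, Adm, Rgs12 and Bcl2l1 completed the 10. After Plvap, the genes lower in MPG-HD were Ccn2, Fam167b, Ccnd1, Abi3bp, Slco2a1, Prcp, Clu, Itm2c and Tacc1. Ccn2, a matrix protein induced by stretch and YAP, had 32 UMIs in 7 MPG-HD cells and 185 UMIs in 15 PBS cells (ratio 0.220, 0.146 to 0.322). Without the Plvap cells its log2 ratio was -0.88 instead of -2.18, Abi3bp reached 0.05 instead of -2.34, and Clu 0.44 instead of -1.69, so these differences shrank or turned without those cells.

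In G-HD over PBS, 77 genes (2.35%) were at least 2-fold higher and 99 (3.02%) lower. Igfbp7, a secreted protein of the vessel wall that binds growth factors, had 1138 UMIs in 35 G-HD cells and 374 UMIs in 29 PBS cells, a ratio of 3.24 (2.88 to 3.65). The ratio was larger, at 4.97, in all other kept cells, and those cells held 5 of the 10 named higher genes past 1.5-fold the same way. Depp1 was also higher here, with 507 CPM in G-HD and 146 CPM in PBS. Among the lower genes were Hspa1b, its HSP90 partner Chordc1, Dnaja1, Plvap, Ccn2, the gap junction gene Gja1 and Slco1c1. Slco1c1 was the named lower gene that other cells did not share in direction, although those cells had only 14 UMIs in G-HD and 4 in PBS.

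In MPG-HD over G-HD, 103 genes (3.44%) were at least 2-fold higher and 93 (3.11%) lower. The higher ones joined heat shock genes (Hspa1b, Chordc1, Cacybp, Dnaja1 and Hsph1) and transport or capillary genes (Tfrc, Slco1c1, Slc22a8 and Ca4), with Wfdc1, a secreted protease inhibitor, as the tenth. Wfdc1 had 205 UMIs in MPG-HD and 43 UMIs in G-HD (ratio 5.70, 4.09 to 8.12), against 1.68 in all other cells. The lower ones included Plvap, Igfbp4, Crip1 and S100a6, whose values in Plvap cells are given above. They also included Lyz2, the lysozyme of phagocytes, with 15 UMIs in MPG-HD and 71 in G-HD. Other MPG-HD cells held 106693 UMIs of Lyz2 and other G-HD cells 297170, a ratio of 0.393, and free RNA from those cells was not separated from the members' own. Of the 3 genes with an opposite ratio in other cells among the 10 higher, all were transporters: Tfrc (0.737), Slco1c1 (0.235) and Slc22a8 (0.438). Other cells held 270 UMIs of Tfrc in MPG-HD and 401 in G-HD (interval 0.629 to 0.862). The other 2 ratios rested on few UMIs: 3 against 14 for Slco1c1 (0.0432 to 0.841) and 10 against 25 for Slc22a8 (0.188 to 0.944).

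**Figure D4:**
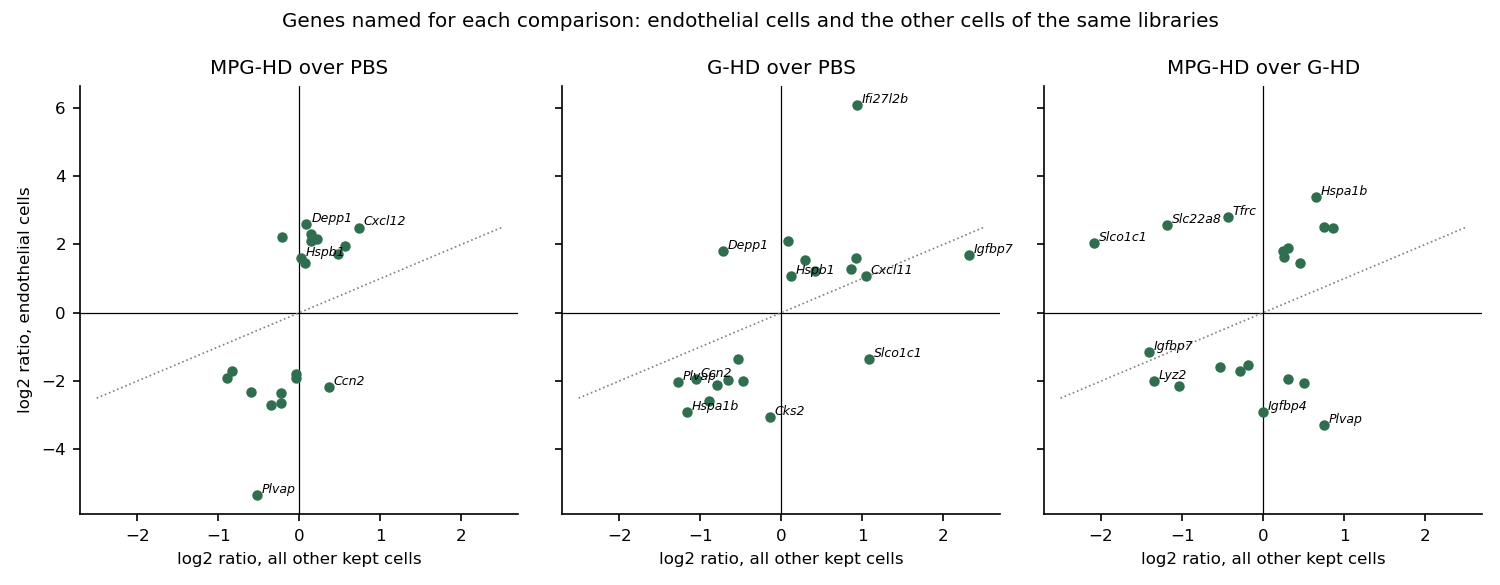
Log2 ratio of each named gene in endothelial cells (vertical axis) against the log2 ratio in all other kept cells of the same libraries (horizontal axis), for the 3 comparisons; the dotted line marks equal ratios, and Plvap in both panels with MPG-HD is drawn at its bound. The genes were chosen for a 2-fold difference in endothelial cells, which sets their distance from 0 on the vertical axis. Of each 10 named higher and 10 named lower, other cells passed 1.5-fold the same way for 1 and 3 in MPG-HD over PBS. The counts were 5 and 6 in G-HD over PBS, and 3 and 3 in MPG-HD over G-HD. Cxcl11 and Igfbp7 lie near or beyond the dotted line in places. Tfrc, Slco1c1 and Slc22a8 lie on opposite sides of 0 on the axes, with few UMIs of Slco1c1 and Slc22a8 in other cells.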

How the data were processed

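Per the labels' protocols, rat cord cells went through 10x Genomics 3′ chemistry. The deposited matrices hold UMI counts per gene and barcode, with no normalization by the authors, per the file headers. Cell Ranger 3.0.2 is named by the submitters' processing notes, together with GRCm38 (mm10), a mouse build. The 25199 features nevertheless carry rat identifiers, and 3.1.0 is the version in the matrix header. Which rat build was used is not given in the sources used here. Promoter coordinates are those of RefSeq GRCr8, matched by symbol. A motif of ETS transcription factors was searched too, and 9 of 15 windows of endothelial genes (60%) held it, against 46.0% of all windows.

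Cells were kept from 200 genes on, up to a mitochondrial share of 20% of UMIs. Members were chosen by the rule in the report. Doublets were not called; leaving out the members with the most UMIs is among the alternatives. UMIs were summed over the members of a library and divided by that sum's total (CPM). Ratios carry exact conditional 95% intervals and shares exact binomial (Clopper-Pearson) ones, for counting error only, since UMIs of 1 suspension are not animals. A gene was measured from 30 UMIs in both sums together. Counts of list members use 1.5-fold. Sums of 0 were set to 3 UMIs for bounds and medians.

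Named genes differed 2-fold or more either way, with the same direction with every cell weighing the same, and no cell with over 50% of the UMIs on the higher side; the first 10 each way by the interval bound nearest 1 were taken, leaving out mitochondrial, ribosomal, haemoglobin and rule genes and unnamed features. Other genes named belong to the lists, except those of the Plvap cells, which were chosen after their values were seen. The members, the 43 lists and the rules were chosen with earlier results of these data known. Python 3.11.15 with NumPy 2.4.6, SciPy 1.17.1 and pandas 2.3.3 was used; the ratio code was tested on simulated data. Alternatives covered the cell filter, the marker number, the limits, weighting, thinning, the count minimum and single cells.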

Additional observations from a re-analysis of the deposited data

How the results depend on the processing

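All 30 recomputed shares of endothelial cells and all 30 recomputed ratios of shares stayed within the counting intervals of the reported values. Counts of genes past 1.5-fold depend on how many genes are tested. From 10 UMIs on they were 892 higher and 1066 lower in MPG-HD over PBS, 898 and 1097 in G-HD over PBS, and 947 and 958 in MPG-HD over G-HD. From 60 UMIs on they were 160 and 100, 118 and 124, and 142 and 97. With members thinned to 2000 UMIs, which leaves fewer genes to test, they were 56 and 55, 69 and 77, and 70 and 66. At 2-fold they were 71 and 120, 77 and 99, and 103 and 93. With every cell weighing the same, 487 genes were higher in G-HD over PBS and 476 lower in MPG-HD over G-HD.

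The median of barrier transporters in G-HD over PBS was -0.85 after thinning. The sprouting median in MPG-HD over PBS was -1.07 without each gene's top cell and 0.22 without Plvap members, and that in MPG-HD over G-HD was -0.56 without Plvap members. The leukocyte adhesion median in MPG-HD over G-HD was -0.59 from 10 UMIs on. Leaving out Plvap members also turned Abi3bp (0.049) and Clu (0.44) in MPG-HD over PBS, and the mural list turned to -0.48 there with a limit of 3 markers. The cause of the other moves was not tested. After thinning, 31 list medians had too few genes for a value. Alternatives that leave out members with mural genes, haemoglobin or Plvap, or the top Plvap cell of a gene, were chosen after seeing the data. No paired analysis was possible because each group has 1 library. With 28 to 35 cells a library, genes under 30 UMIs in both libraries together were not compared as measured, and a difference between animals cannot be told apart from a difference between treatments.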

Other observations

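Genes of the G2 and M phases of the cell cycle had 140 UMIs over the MPG-HD members, 116 over the G-HD members and 351 over the PBS members. In PBS, 160 of those UMIs (45.6%) lay in 1 cell, against 31 in the top cell of MPG-HD and 11 in that of G-HD. Top2a, an enzyme that untangles replicated DNA, had 3 UMIs in MPG-HD, 0 in G-HD and 9 in PBS, and Mki67, a proliferation marker, had 0, 1 and 9. The phase of single cells was not called.

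Immediate early genes, which cells switch on within minutes of a stimulus, had medians above 0 in both gels. Of 15 genes, 13 were measured. In MPG-HD over PBS, 4 were at least 1.5-fold higher and 0 lower (median log2 ratio 0.54), against 10.9% and 10.6% of all genes. In G-HD over PBS, 0 were higher or lower (0.35), against 9.28% and 10.9%. Fos had 3838 CPM in MPG-HD, 4074 CPM in G-HD and 3125 CPM in PBS. In all other cells the medians were 0.01 and 0.09. Genes of the glucocorticoid list gave medians of 0.36 and 0.19, and Klf9, a factor that glucocorticoids induce, had 332 CPM in MPG-HD, 227 CPM in G-HD and 166 CPM in PBS. Venous genes were at least 1.5-fold lower for 4 of 9 measured in MPG-HD over PBS and for 3 of 10 in G-HD over PBS. In both, 0 were higher (medians -0.38 and -0.24), and of all genes, 10.6% and 10.9% were lower. In all other cells the medians of the venous genes measured there were -0.42 and 0.07, so the first was as low there as in endothelial cells.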
